A study of Danio rerio with 6 samples.

Results

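Translation initiation factors are the proteins that bring the initiator tRNA, the mRNA and the ribosomal subunits together before protein synthesis starts. Their genes were examined here as every gene whose zebrafish symbol begins with eif and a digit from 1 to 6. This rule found 65 of the 34289 genes in the count tables. Osteoblasts, which build bone, were sorted from regrowing scales of zebrafish carrying the transgenes osx:H2A-mCherry and osx:Venus-hGeminin. Both reporters are driven by osx (sp7) sequence, so the sort covers cells in which that sequence is active. All fish carried both transgenes and had scales plucked; the scales were taken again 4 days later, and each library pooled cells of 3 to 5 fish. The Geminin-negative group (osx:H2A-mCherry+ osx:Venus-hGeminin-) and Geminin-positive group (osx:H2A-mCherry+ osx:Venus-hGeminin+) had 3 libraries each. Venus-hGeminin builds up from S phase to mitosis. The labels name Geminin-negative libraries low Erk activity and Geminin-positive ones high Erk activity. The design text instead says that reporter and Erk activity run opposite, so the groups are named by gate and no Erk direction is drawn. The labels do not state the age of the fish. Nothing says whether the libraries came from separate fish, so p-values measure only the spread between these libraries.

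Initiation proceeds through complexes with distinct tasks. The trimeric factor eIF2 carries the initiator tRNA in its GTP-bound form, eIF2B recharges it with GTP, and the eIF2 kinases slow that step under stress by phosphorylating the alpha subunit. The scaffold eIF3 holds the small ribosomal subunit, while eIF4E binds the mRNA cap, eIF4G bridges cap and ribosome and eIF4A unwinds the leader. The factors eIF1, eIF1A and eIF5 control start codon choice, and eIF5B joins the large subunit. In bone, matrix-secreting osteoblasts are known for heavy protein synthesis. Many of these genes exist in zebrafish as pairs of copies from the genome duplication of teleost fish.

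Total counts were 15854710 to 34472612 per library. As a check of the sort, gmnn, the gene of geminin, had 365 to 426 CPM (counts relative to the library's TMM-scaled total) in Geminin-negative and 1516 to 1633 CPM in Geminin-positive libraries. All 10 listed osteoblast markers had counts in both groups, bglap at no more than 0.247 CPM. That list took 4.44% to 10.5% of counts in Geminin-negative and 2.88% to 4.74% in Geminin-positive libraries. Its most abundant gene, col10a1a, had 31136 to 89554 against 29641 to 43149 CPM, with overlap. Of 9 tested genes 7 were negative, with a median log2 fold change of -0.54 and 0 called. The other 2, sp7 and alpl, were higher in every Geminin-positive library. They had 72.4 to 138 against 150 to 271 CPM and 5.76 to 11.7 against 14.6 to 21.9 CPM. Markers of other cells differed between the gates: the leukocyte list took 0.279% to 0.467% of counts in Geminin-negative and 0.00661% to 0.0184% in Geminin-positive libraries, with all 17 tested genes negative. In Geminin-positive libraries coro1a and cxcr3.2 were at 0. The expressed row of the macrophage marker mpeg1.1 had 115, 123 and 312 CPM in Geminin-negative and 0.0635, 22.1 and 7.33 CPM in Geminin-positive libraries. The osteoclast list took 0.156% to 0.162% against 0.0343% to 0.0431%, with 7 of 7 tested genes negative and calcr and ocstamp at 0 in Geminin-positive libraries. The keratinocyte list took 0.102% to 0.520% against 0.0538% to 0.0823%. The dermal fibroblast list took 0.224% to 0.236% against 0.342% to 0.587%, with 4 of 8 tested genes positive and a median log2 fold change of -0.09. In it lum (834 to 1454 against 2590.4 to 6622 CPM) and pdgfrl were higher and twist1a and twist2 lower in every Geminin-positive library, none of them called. The part of such cells in any value below was not tested, and in these bulk samples fewer cells of a type and less RNA per cell cannot be told apart.

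No initiation factor gene passed the test between the gates. Of the 65 genes, 62 had enough counts to be tested, and 0 passed an adjusted p of 0.05 in edgeR's quasi-likelihood test, against 0.607% of all 12855 genes tested (78 genes). Few or no calls are expected at that share in a list this short, or in the complexes below. The smallest adjusted p was 0.2441. At an unadjusted p under 0.05 there were 4 members (6.45%), against 9.40% of all genes. Of these, 2 were higher in Geminin-positive libraries (background 3.64%) and 2 were lower (background 5.76%). DESeq2 called 1 member, eif3hb, where it called 4.93% of all genes. The libraries of the gates did not overlap for 5 members (8.06%), against 18.4% of all genes, with 3 higher (background 8.09%) and 2 lower (background 10.3%). The other 12 alternatives called 0 members. They called 2.57% of all genes without a filter, 2.28% with a stricter filter, and between 0.152% and 0.678% with 1 library left out (the lowest without Geminin-negative replicate 2, next to 0.171% without Geminin-negative replicate 3).

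Differences in the fitted level were small for most members. Log2 fold changes are Geminin-positive over Geminin-negative. The median over the 62 members was 0.08, beside -0.01 over all genes tested, with 36 members positive (58.1%, against 49.6% of all genes) and 26 negative. Without TMM scaling 16 members were positive and 46 negative, while the median over all genes was -0.47. Counts by sign, here and below, thus depend on the scale. The log2 fold change lay within 1 unit of 0 for 56 of the 62 (90.3%), against 64.3% of all genes tested. These shares are not matched for level. A mean of at least 10 CPM was reached by 56 of the members but by only 6154 of the 12855 genes. For 22 members the whole 95% interval lay within 1 unit. For the other 40 the data do not exclude a difference of 2-fold or more.

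**Figure D1:**
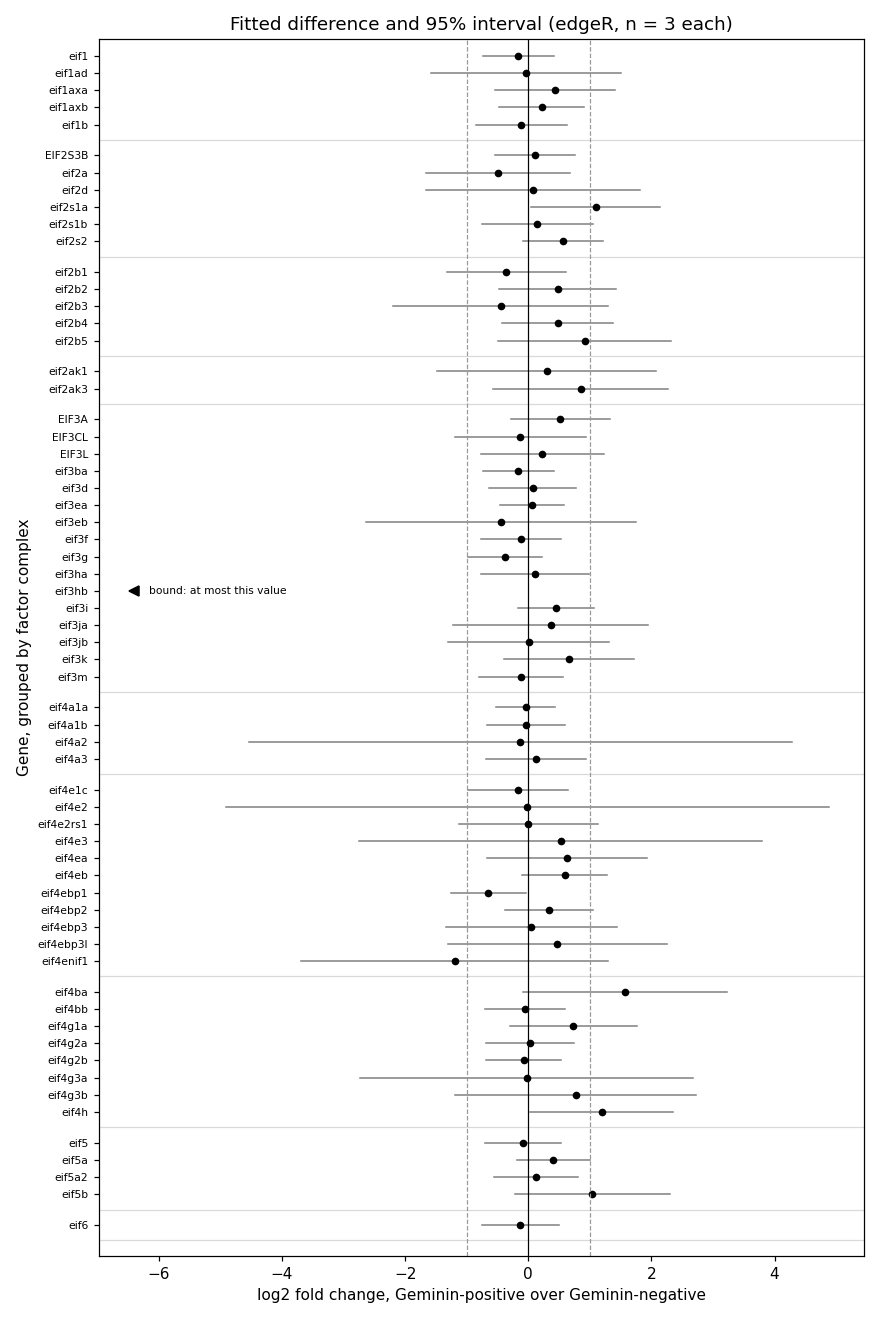
Fitted log2 fold change (points) and its 95% interval (lines) for the 62 tested initiation factor genes, from edgeR with n = 3 libraries per gate; dashed lines mark 1 log2 unit. Most points sit within 1 unit of 0, and eif3hb, with 0 counts in Geminin-positive libraries, is drawn at its bound of -6.41.

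The summed level of the genes depended on the scale. On the TMM scale the members together had 4945, 6546 and 6094 CPM in Geminin-negative replicates 1 to 3 and 6365, 6530 and 6212 CPM in Geminin-positive replicates 1 to 3, so the groups overlapped. As a share of all counts, without that scaling, they took 0.610%, 0.691% and 0.757% against 0.608%, 0.474% and 0.540%. There every Geminin-positive library lay below every Geminin-negative one, though the nearest pair differed only in the third digit. On that scale the gates also separated, lower in Geminin-positive libraries, for eIF3 (0.143%, 0.144% and 0.144% against 0.135%, 0.0889% and 0.0972%), for the eIF4A group, for the eIF4E group and for eif6. The share of all genes that separate on this scale was not computed, so the separation cannot be read as a trait of these groups. The TMM factors themselves differed by gate, at 1.24, 1.06 and 1.25 in Geminin-negative and 0.96, 0.73 and 0.87 in Geminin-positive libraries. Using library sizes without TMM moved the median gene from -0.01 to -0.47 and the median member from 0.08 to -0.36. That change rescales whole libraries and so shifts all genes nearly alike, which says nothing about the members in particular. Of members with at least 10 CPM, the median coefficient of variation was 30.0% in Geminin-negative and 25.6% in Geminin-positive group, beside 36.4% and 34.7% over all genes of that level. A gene with at least 100 counts in a library and 0 in another of its group was seen for 3 of 62 members in Geminin-negative group and for 1 of 61 in Geminin-positive group, against 21.6% and 12.02% of all genes with at least 100 counts. Beyond that limit, these genes were not matched to the members in level.

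**Figure D2:**
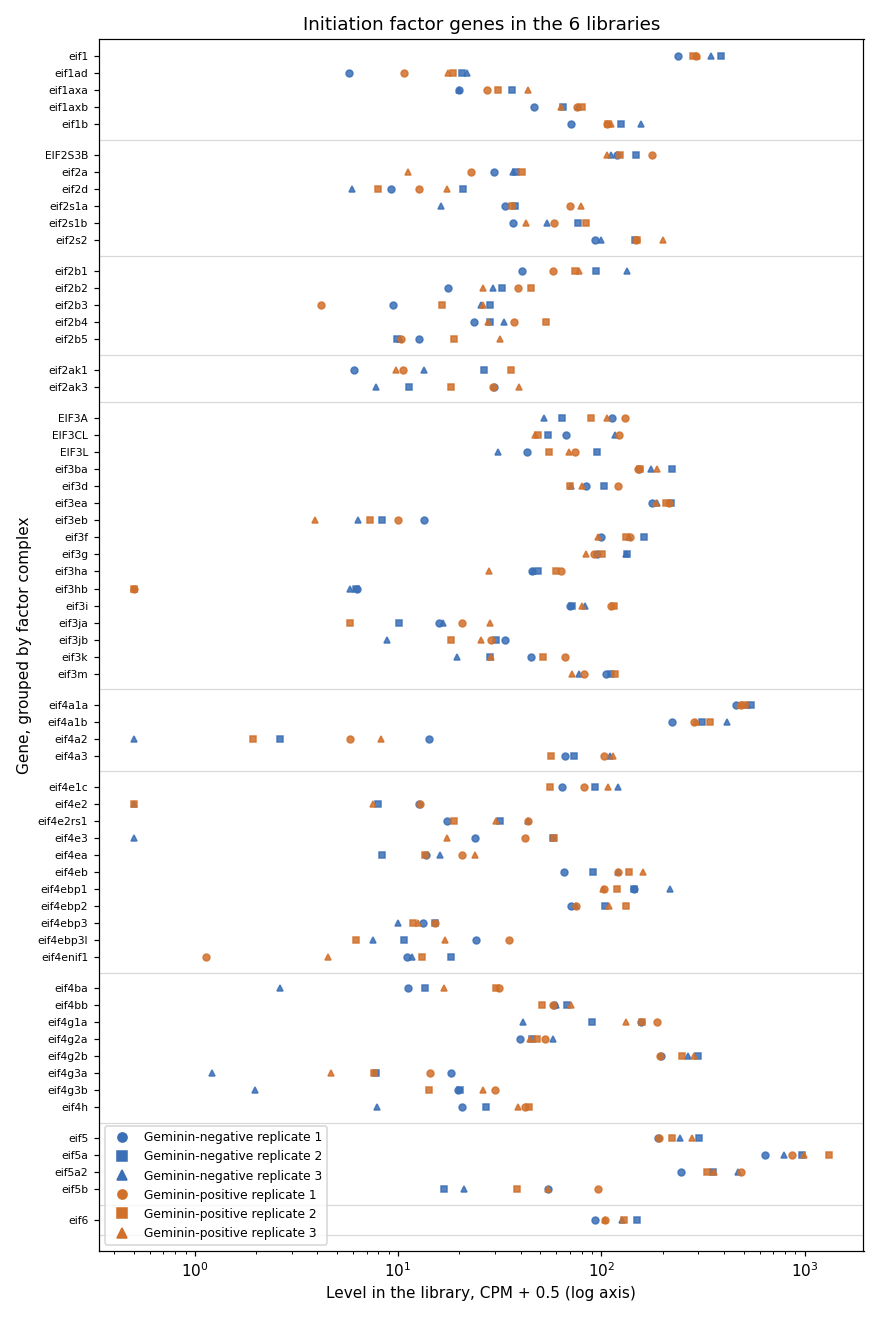
Level of each tested initiation factor gene in the 6 libraries, as CPM + 0.5 on a log axis, with blue for Geminin-negative and orange for Geminin-positive libraries and marker shape for the replicate. The gates interleave for most genes, whereas the 3 Geminin-positive points of eif3hb lie at the left edge, at 0 CPM.

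The start codon factors showed no called difference. The most abundant of them, eif1, whose protein keeps the scanning ribosome open until a start codon is met, had 237, 389 and 344 CPM in Geminin-negative and 289.9, 282 and 293 CPM in Geminin-positive libraries. All Geminin-positive values fell inside the range of Geminin-negative ones, with a log2 fold change of -0.16 (SE 0.25, 95% interval -0.74 to 0.41, edgeR adjusted p = 0.9999). Its paralogue eif1b had 70.4, 124 and 156 CPM against 106, 107 and 110.3 CPM. Both genes were thus even among Geminin-positive libraries and spread among Geminin-negative ones. The eIF1A gene eif1axa had 19.4, 35.7 and 19.4 CPM against 26.9, 30.6 and 43.1 CPM, again with overlap (log2 fold change 0.43, SE 0.43, adjusted p = 0.9999). The other copy, eif1axb, and eif1ad had log2 fold changes of 0.22 and -0.04.

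The eIF2 group, counted here with the separate factor genes eif2a and eif2d, was on the positive side in 5 of 6 cases. Its median log2 fold change was 0.12, with 0 called. The alpha subunit, the target of the stress kinases, has the copies eif2s1a and eif2s1b. The first (ENSDARG00000005827, danRer10 chromosome 17, 34296399 to 34306287) had 33.1, 37.2 and 15.7 CPM in Geminin-negative and 69.4, 35.8 and 78.7 CPM in Geminin-positive libraries. Geminin-positive replicates 1 and 3 stood above all Geminin-negative libraries and replicate 2 stood among them. The log2 fold change of eif2s1a was 1.097 (SE 0.46, 95% interval 0.05 to 2.14, unadjusted p = 0.04189, edgeR adjusted p = 0.4887), and it was 0.76 without Geminin-negative replicate 3. The second copy, eif2s1b, had 36.1, 76.2 and 53.4 CPM against 57.9, 83.2 and 41.8 CPM, with full overlap (log2 fold change 0.14). Per kb, eif2s1a made up 44.7%, 30.1% and 20.6% of the pair in Geminin-negative and 51.4%, 27.5% and 62.4% in Geminin-positive libraries, which overlapped.

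The beta subunit gene eif2s2 had 92.1, 146 and 99.4 CPM in Geminin-negative and 147, 148 and 201 CPM in Geminin-positive libraries. The groups did not overlap on the TMM scale, but the highest Geminin-negative and the lowest Geminin-positive library were nearly level. Its log2 fold change of 0.56 (SE 0.28, 95% interval -0.09 to 1.21) did not pass the test (edgeR adjusted p = 0.6719). With library size alone it was 0.11, so the separation depends on the scaling. The gamma subunit, listed as EIF2S3B, had 119, 148 and 111 CPM against 177, 124 and 106 CPM. The genes eif2a and eif2d, whose proteins can deliver initiator tRNA without eIF2, had log2 fold changes of -0.49 and 0.08.

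The 5 genes of eIF2B, the exchange factor, had log2 fold changes from -0.45 (eif2b3) to 0.92 (eif2b5), with 3 positive and 0 called. The catalytic subunit gene eif2b5 had 12.2, 9.42 and 9.76 CPM in Geminin-negative and 9.78, 18.3 and 31.2 CPM in Geminin-positive libraries. Geminin-positive replicate 1 lay among Geminin-negative values, and the difference did not pass (SE 0.62, edgeR adjusted p = 0.8922). The regulatory subunit gene eif2b2, the most abundant of the complex per kb, had 17.1, 31.8 and 28.9 CPM against 38.4, 44.3 and 25.7 CPM, also with overlap (log2 fold change 0.48, SE 0.42, adjusted p = 0.9999).

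Of the eIF2 kinases found here, eif2ak3 and eif2ak1 were tested. The gene eif2ak3 encodes PERK, the sensor of unfolded protein in the endoplasmic reticulum. It had 29.3, 10.8 and 7.29 CPM in Geminin-negative and 28.9, 17.6 and 38.7 CPM in Geminin-positive libraries. The gates overlapped, with a log2 fold change of 0.85 (SE 0.62, 95% interval -0.58 to 2.27, edgeR adjusted p = 0.9393). Over the 13 alternatives it ranged from 0.38 with library size alone to 1.66 without Geminin-negative replicate 1. The haem-regulated kinase gene eif2ak1 ranged from 5.57 to 26.0 CPM and from 9.21 to 35.4 CPM. The double-stranded RNA kinase gene eif2ak2 had 11 counts in all 6 libraries together and was not tested. Summed over the kinases, Geminin-negative libraries had 35.3, 36.8 and 20.2 CPM and Geminin-positive ones 39.1, 53.0 and 47.9 CPM, without overlap. As a share of counts the kinases overlapped between the gates. On the TMM scale 18.4% of all single genes separated too, and no such share for sums was computed.

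The eIF3 genes formed the group with the most members. Their summed level was 1227 ± 118 CPM in Geminin-negative and 1253 ± 152 CPM in Geminin-positive libraries (SD, n = 3 each), and 9 of 16 tested genes lay on the positive side (median log2 fold change 0.03). The member with the highest level per kb, eif3f, had 99.5, 161 and 136 CPM against 138, 132 and 96.1 CPM, with complete overlap (log2 fold change -0.12, SE 0.29, 95% interval -0.77 to 0.54). Its protein belongs to the octamer that forms the core of the complex. The subunit gene eif3ea, with 177, 220.3 and 187 CPM against 214, 207 and 186 CPM, was among the steadiest (log2 fold change 0.06, SE 0.23, 95% interval -0.46 to 0.57). The scaffold subunits listed as EIF3A and EIF3CL had log2 fold changes of 0.52 and -0.13. The RNA-binding subunit gene eif3g had -0.38 (95% interval -0.98 to 0.22) and eif3i had 0.45 (95% interval -0.16 to 1.07). None of these passed the test.

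Levels of the eIF3 genes differed more among subunits than between gates. Leaving out the minor copies eif3eb and eif3hb, the median over 14 genes was 33.8 to 42.8 CPM per kb in Geminin-negative and 34.2 to 53.8 CPM per kb in Geminin-positive libraries. In all 6 libraries eif3f was the highest, at 108 to 180.2 CPM per kb. The lowest was eif3ja in 4 libraries, a gene of the loosely attached j subunit, eif3jb in Geminin-negative replicate 3 and EIF3CL in Geminin-positive replicate 3.

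The exception in eIF3 was eif3hb, 1 of the copies of the h subunit gene (ENSDARG00000036116, danRer10 chromosome 19, 46265567 to 46369607). It had 113, 208 and 118 counts, or 5.78, 5.71 and 5.31 CPM, in Geminin-negative libraries and 0 counts in each Geminin-positive library. The Geminin-negative libraries were close to each other and none of Geminin-positive libraries had a read, so the groups were fully apart. Against a floor of 3 counts over Geminin-positive group, which covers counting error only, eif3hb was at least 85.1-fold lower there. The floor does not cover spread between libraries. Of all genes with at least 100 counts in a Geminin-positive library, 12.02% had 0 in another of that gate. With 0 counts in each Geminin-positive library, eif3hb cannot be in that set, so this share says nothing about eif3hb. The share of all genes with counts in each Geminin-negative library and 0 in each Geminin-positive one was not computed. Only its Geminin-negative counts carried eif3hb past the filter, and the stricter filter left it out. It did not pass edgeR's test (unadjusted p = 0.009078, adjusted p = 0.2441), whereas DESeq2 gave an adjusted p of 0.000554; over the other alternatives that kept the gene the adjusted p was 0.0995 to 0.543. The level was low for the complex: per kb, eif3ha made up 93.2%, 93.7% and 93.8% of the pair in Geminin-negative libraries. The larger copy eif3ha had 45.0, 48.5 and 45.3 CPM in Geminin-negative and 62.4, 59.6 and 27.5 CPM in Geminin-positive libraries, with overlap. Leukocyte and osteoclast marker lists were lower in the same libraries (0.279% to 0.467% against 0.00661% to 0.0184%, and 0.156% to 0.162% against 0.0343% to 0.0431%), and their part in the value of eif3hb was not tested. The gene eif3bb, annotated by RefSeq as a pseudogene, had 0 counts in all 6 libraries, which allows up to 0.0242 CPM over them.

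**Figure D3:**
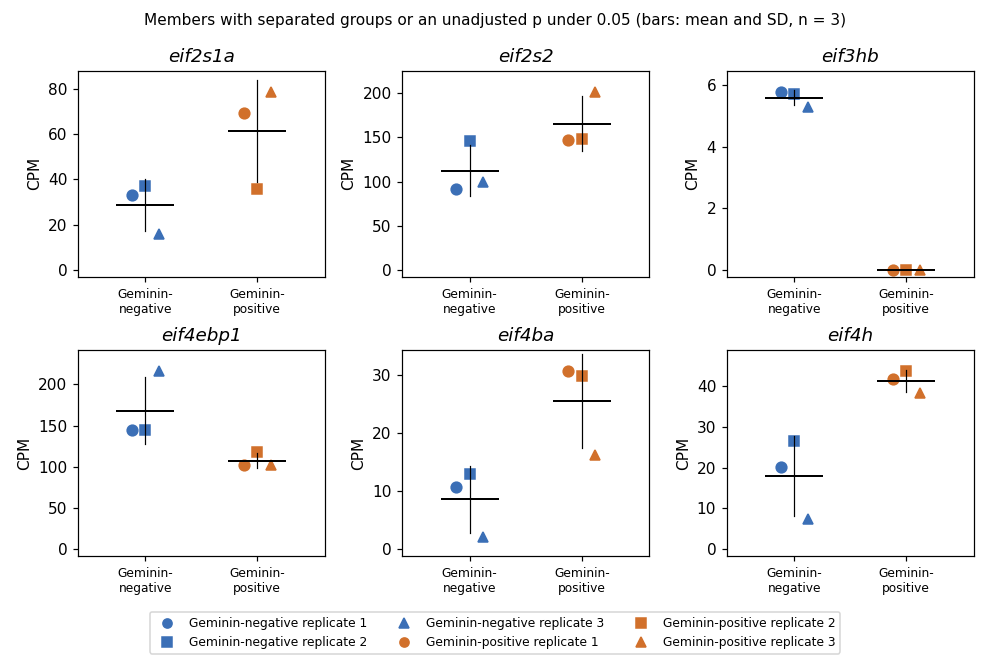
Level in CPM of the 6 members with separated groups or an unadjusted p under 0.05, by library, with the mean and SD of each gate (n = 3). eif3hb is at 5.31 to 5.78 CPM in one gate and at 0 in the other, eif4ebp1 is lower and eif2s2, eif4ba and eif4h are higher in every Geminin-positive library, and eif2s1a overlaps.

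The genes of the helicase eIF4A gave 0 calls, with 1 of 4 log2 fold changes positive. The main gene, eif4a1a, had 459, 542 and 521 CPM in Geminin-negative and 487, 509 and 479.9 CPM in Geminin-positive libraries. The values of both gates lay within the same range, and the 95% interval of its log2 fold change of -0.05 was -0.52 to 0.43, with an SE of 0.21 that was the smallest among the members (edgeR adjusted p = 0.9999). Its copy eif4a1b had 222, 311 and 415 CPM against 286, 340.5 and 292 CPM. Reads of such similar copies may have been split between them by the authors' counting. The paralogue eif4a3, the helicase of the exon junction complex rather than of initiation, had 65.6, 73.1 and 109.8 CPM against 102, 55.7 and 113 CPM. Its log2 fold change was 0.12 (SE 0.36). The gene eif4a2 was low in every library, from 0 to 13.8 CPM, and its interval of -4.54 to 4.28 leaves its difference undetermined.

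Among the cap-binding genes, 6 of 11 tested members of the eIF4E group had a positive log2 fold change, the median was 0.05 and 0 were called. The abundant cap-binding copies were eif4e1c, with 63.3, 92.2 and 120 CPM against 81.7, 55.1 and 107 CPM, and eif4eb, with 65.2, 90.6 and 120 CPM against 119, 135 and 159.9 CPM. For eif4eb the highest Geminin-negative library was just above the lowest Geminin-positive one (0.59 on the log2 scale, SE 0.30, not called, edgeR adjusted p = 0.6692). The row of eif4eb overlaps that of metap1, so reads of the pair may be mixed. Both eif4e2 and eif4e3, genes of cap-binding relatives of eIF4E, had 0 counts in Geminin-negative replicate 3. In Geminin-positive replicate 2, eif4e2 also had 0 counts. In Geminin-negative replicate 2, by contrast, eif4e3 had 2091 counts. The copy eif4e1b had 0 counts in all libraries. It is known in zebrafish from the germ line and muscle.

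The eIF4E-binding proteins hold eIF4E away from eIF4G until mTORC1, a growth-sensing kinase complex, phosphorylates them. Their main gene, eif4ebp1 (ENSDARG00000043608, danRer10 chromosome 21, 20976511 to 20984072), had 145, 144 and 216 CPM in Geminin-negative and 102, 118 and 102 CPM in Geminin-positive libraries. Every Geminin-positive library was below every Geminin-negative one. The log2 fold change of -0.65 (SE 0.27, 95% interval -1.25 to -0.04, unadjusted p = 0.0388) did not pass adjustment over all genes (edgeR adjusted p = 0.4661), and it stayed negative in all 13 alternatives, from -1.14 to -0.47. The other genes of the group did not share this: eif4ebp2 had 70.1, 104 and 74.4 CPM against 74.1, 132 and 108 CPM, with a log2 fold change of 0.34. The low copies eif4ebp3 and eif4ebp3l had log2 fold changes of 0.05 and 0.47. Per kb, eif4ebp1 made up 64.9%, 63.5% and 78.8% of the binding protein genes in Geminin-negative and 51.8%, 56.9% and 53.0% in Geminin-positive libraries, a share that scaling between libraries does not touch. Relative to eif4ea, eif4eb and eif4e1c together, the level of eif4ebp1 per kb was 1.44 ± 0.21 in Geminin-negative and 0.83 ± 0.24 in Geminin-positive libraries (SD, n = 3 each). With all 4 binding protein genes in place of eif4ebp1 the ratio overlapped between the gates, at 2.56, 1.98 and 1.77 against 1.52, 1.91 and 1.14. The 13 alternatives, the share and the ratios reuse the same counts of eif4ebp1 and are no further result. No background over other genes was computed for such shares or ratios. The gene eif4enif1, whose protein carries eIF4E into the nucleus, had 10.5, 17.8 and 11.2 CPM against 0.635, 12.6 and 4.01 CPM.

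Genes of the bridge and its helpers were on the positive side in 5 of 8 cases, with a median log2 fold change of 0.38 and 0 called. Their summed level was 518, 568 and 436 CPM in Geminin-negative and 605, 597 and 614 CPM in Geminin-positive libraries, without overlap on the TMM scale and with overlap as a share of counts. Separation of sums has no computed background here, while 18.4% of single genes separated on the TMM scale. The helicase helper eif4h (ENSDARG00000042252, danRer10 chromosome 15, 4594119 to 4625781) had 20.1, 26.7 and 7.33 CPM against 41.7, 43.6 and 38.2 CPM. The Geminin-positive libraries were close together and all above Geminin-negative ones. The log2 fold change of 1.19 (SE 0.51, 95% interval 0.03 to 2.35, unadjusted p = 0.04539) did not pass (edgeR adjusted p = 0.512) and was 0.78 without Geminin-negative replicate 3. The other helper, eIF4B, is encoded by eif4ba and eif4bb. The minor copy eif4ba had 10.7, 13.0 and 2.11 CPM against 30.7, 29.9 and 16.2 CPM, again without overlap (log2 fold change 1.57, SE 0.73, adjusted p = 0.5774), while the major copy eif4bb had 58.1, 67.0 and 59.2 CPM against 57.4, 50.3 and 70.1 CPM.

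The scaffold genes themselves differed among copies. The most abundant, eif4g2b, encodes a relative of eIF4G that lacks the eIF4E-binding part, and it had 197, 299 and 267 CPM in Geminin-negative and 193, 248 and 284 CPM in Geminin-positive libraries (log2 fold change -0.07, SE 0.27). The values of the gates interleaved. The classical scaffold gene eif4g1a had 156, 89.8 and 40.5 CPM against 187, 157 and 132 CPM, with Geminin-negative replicate 1 inside Geminin-positive range (log2 fold change 0.73, SE 0.45, adjusted p = 0.8279). Geminin-negative replicate 3 was also the lowest library for eif4g3a (0.720 CPM, against 4.20 to 17.6 in the others) and eif4g3b (1.48 CPM, against 13.7 to 29.4). These genes are long. For the 12 members over 4 kb, that library was lower than the mean of the other 5 by a median of -0.61 on the log2(CPM + 0.5) scale. For the 28 members under 2 kb the median was 0.03. The same medians over all genes tested were -0.37 and 0.13. In Geminin-negative replicate 1 and Geminin-positive replicate 1 the long members were instead higher, by medians of 0.48 and 0.57. Over all tested genes above 4 kb these medians were 0.73 and 0.60, so the shift was not particular to the members. The part of transcript length in the values of eif4g1a, eif4ba and eif2ak3 was not tested.

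**Figure D4:**
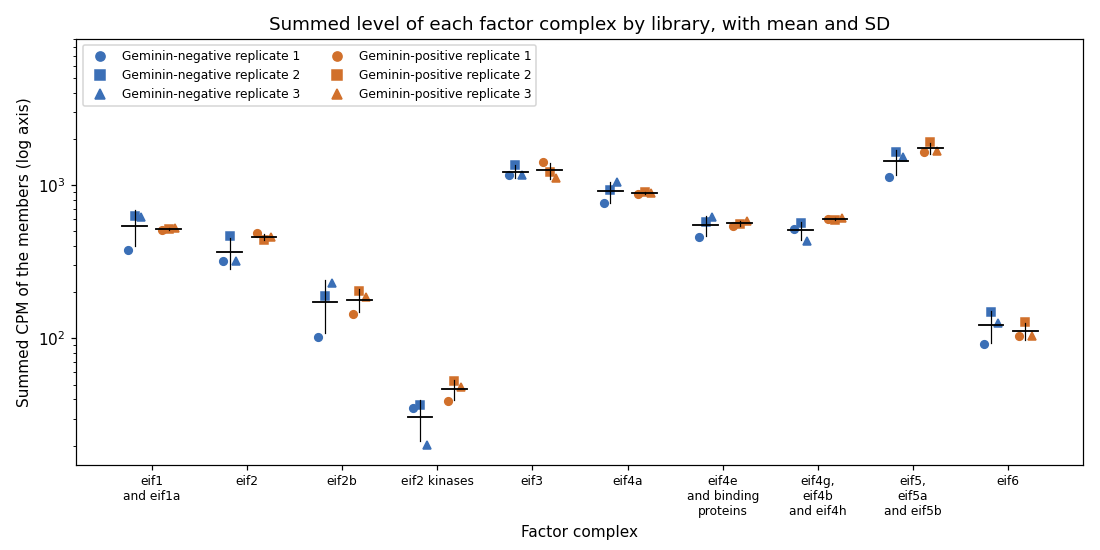
Summed CPM of the members of each factor complex in the 6 libraries (log axis), with the mean and SD of each gate (n = 3). On this TMM scale the gates overlap for 8 of the 10 complexes, and Geminin-positive libraries lie higher for the eIF2 kinases and for eif4g, eif4b and eif4h. Of all single genes tested, 18.4% separate on this scale. These separations thus cannot be read as a trait of those groups.

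The late-acting factors held the most abundant member. The gene eif5a encodes the hypusine-bearing factor that helps ribosomes past difficult peptide bonds, and it had 634, 968 and 791 CPM in Geminin-negative and 866, 1311 and 993 CPM in Geminin-positive libraries. Geminin-positive values were higher on average but overlapped (log2 fold change 0.41, SE 0.26, 95% interval -0.19 to 1.00, edgeR adjusted p = 0.8562). It was the highest member by level per kb, at a mean of 403 CPM per kb, followed by eif1 at 195 CPM per kb. The copy eif5a2 had 247, 352 and 470.0 CPM against 484, 329 and 356 CPM. The gene eif5, which encodes the GTPase-activating factor of eIF2, had 189, 299.7 and 244 CPM against 191, 221 and 277 CPM, with full overlap. The subunit joining factor gene eif5b had 54.3, 16.3 and 20.5 CPM against 95.2, 37.9 and 53.8 CPM. Geminin-negative replicate 1 lay within Geminin-positive range, and the log2 fold change of 1.04 (SE 0.55, 95% interval -0.22 to 2.30) did not pass (edgeR adjusted p = 0.7123). Over the 13 alternatives it ranged from 0.59 with library size alone to 1.78 without Geminin-negative replicate 1. It was 0.60 without Geminin-positive replicate 1. The gene eif6, whose protein keeps the large ribosomal subunit from joining too early, had 92.5, 149 and 126 CPM against 104, 128 and 104 CPM (log2 fold change -0.13, SE 0.27).

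The more abundant copy per kb was the same in all 6 libraries for most pairs of copies. It changed between libraries in the pairs of eif1axa, eif2s1a, eif3ja, eif4a1a and eif4ebp3, the last at 26.8% to 63.2%. No background share over other duplicated genes was computed. In 14 pairs, the share of 1 copy per kb of gene length separated the gates in 2. These were eif3ha of the h pair, at 93.2% to 93.8% in Geminin-negative and 100% in Geminin-positive libraries, and eif4ba of the eIF4B pair, at 7.67%, 8.09% and 1.59% against 19.4%, 21.2% and 9.46%. The eif3ha share only restates the 0 counts of eif3hb in Geminin-positive libraries and is no further result. The level of eif3ha itself overlapped between the gates. The eIF4A pair stayed near parity, with eif4a1a at 51.5% ± 6.3 against 50.8% ± 1.7 (SD, n = 3 each). The share of eif5a in its pair was 75.4% ± 5.1 against 78.1% ± 6.8, and that of eif3ea was 98.0% ± 0.97 against 98.6% ± 0.56. The j subunit pair was the least stable, with eif3ja at 22.8% to 66.0% over the 6 libraries.

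**Figure D5:**
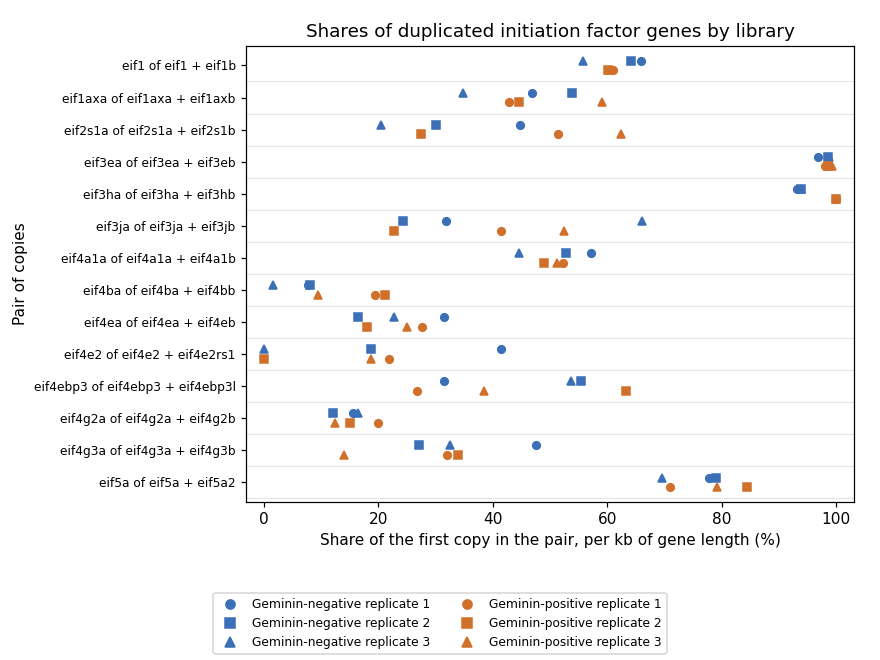
Share of the first copy in each of 14 pairs of duplicated genes, in percent of the pair's level per kb of gene length, with 1 point per library. Only the eif3ha and eif4ba shares separate the gates, and the shares of eif3ja range from 22.8% to 66.0%. The eif3ha share restates the 0 counts of eif3hb in Geminin-positive libraries.

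Other genes of the translation machinery also gave 0 calls, where few or none are expected at the 0.607% called among all genes tested. Of 10 tested elongation factor genes 8 were positive, and their median log2 fold change was 0.35. In eef1da the gates did not overlap (260.2 ± 30.7 against 376 ± 79.2 CPM, edgeR adjusted p = 0.5774). Other examples were eef1g (416 ± 97.1 against 639 ± 121 CPM, SD, n = 3 each) and eef2b, the translocase gene (1194 ± 237 against 1737 ± 466 CPM); neither passed (edgeR adjusted p = 0.5229 and 0.6587). The 6 termination and recycling genes had a median of 0.52 with 5 positive. Of these, gspt1l, a release factor gene, had 85.3 ± 15.3 against 128 ± 25.7 CPM, abce1 had 79.6 ± 42.6 against 127 ± 11.4 CPM and hbs1l had 21.8 ± 5.51 against 33.1 ± 7.96 CPM.

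Among partners of the initiation factors 13 of 19 were positive and the median was 0.11. The poly(A)-binding protein gene pabpc1b had 88.8, 111 and 70.5 CPM in Geminin-negative and 135, 298 and 214 CPM in Geminin-positive libraries, without overlap (log2 fold change 1.26, edgeR adjusted p = 0.195). The gene mknk2a, of a kinase that phosphorylates eIF4E downstream of Erk, had 20.6, 16.7 and 19.5 CPM against 4.38, 4.83 and 6.52 CPM, also without overlap (log2 fold change -1.85, adjusted p = 0.3388). Its more abundant copy mknk2b had 190 ± 99.9 against 206 ± 34.0 CPM (log2 fold change 0.11). The related gene mknk1 had 38.5 ± 11.7 against 37.4 ± 2.60 CPM (log2 fold change -0.04). Both overlapped between the gates. The eIF4A inhibitor gene pdcd4a had 49.0 ± 18.2 against 101 ± 28.8 CPM, and its copy pdcd4b had 403 ± 86.1 against 258 ± 33.8 CPM.

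The mTORC1 list had 8 of 19 members positive (median -0.06). In it deptor, an inhibitor of the kinase, had 12.3, 2.005 and 13.3 CPM against 0, 0 and 0.188 CPM (edgeR adjusted p = 0.2788). Only its Geminin-negative counts carried deptor past the filter. Next by p were rps6kb1b, the gene of an S6 kinase, with 23.4, 48.6 and 24.8 CPM against 21.2, 11.8 and 13.7 CPM, and rragca, with 21.9, 8.02 and 38.8 CPM against 11.6, 0.649 and 3.82 CPM. Neither passed (edgeR adjusted p = 0.5806 and 0.6507). In the integrated stress response list, of genes linked to the response to eIF2 phosphorylation, 10 of 19 were positive (median 0.24). The smallest p there was that of slc3a2a, an amino acid transporter subunit gene, with 7.36, 4.09 and 49.1 CPM against 0 counts in each Geminin-positive library (edgeR adjusted p = 0.0847). Only its Geminin-negative counts, uneven among those libraries, carried slc3a2a past the filter. Further, atf4b, the gene of a transcription factor of that response, had 922 ± 73.6 against 579 ± 92.3 CPM and trib3 had 309 ± 75.9 against 177 ± 42.3 CPM, both without overlap. In contrast chac1 was higher in every Geminin-positive library, also without overlap (322 ± 25.7 against 573 ± 223 CPM). None of atf4b, trib3 and chac1 passed (edgeR adjusted p = 0.3061, 0.3533 and 0.3590).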

How the data were processed

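The authors deposited 1 table of raw read counts per gene and library; these counts were used as deposited. Per the submitters' processing notes, featureCounts 1.6.1, TopHat2 2.1.1, Trim Galore 0.4.1 and build danRer10 were used. No source used here states strand use, the handling of multi-mapped reads or the annotation release, so the rows of 21 members that overlap another gene's row, and near-identical copies, are uncertain. The deposited tables also give gene length, another measure by the authors' tool, used for levels per kb.

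Ensembl identifiers were given symbols from a table and matched to RefSeq names (GRCz12tu) by symbol, or by base name or older name with chromosome and a neighbour. Of the 66 table symbols that fit the rule, 65 are in the count tables, 4 of them (EIF2S3B, EIF3A, EIF3CL and EIF3L) with the table's symbol alone.

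All genes were fitted in edgeR 4.0.16 (R 4.3.3) with filterByExpr, TMM scaling and the robust quasi-likelihood test, adjusted by Benjamini-Hochberg over 12855 genes. edgeR estimated a biological coefficient of variation of 1.12. With simulated counts for 12855 genes, of which 200 were changed, this comparison recovered 18% of 4-fold and 46% of 8-fold changes. SE is the absolute log2 fold change over the root of F, and the 95% interval uses the t distribution. The floor is 3 counts and covers counting error only, since no source names molecular identifiers. Alternatives were DESeq2 1.42.0, limma-voom (limma 3.58.1), other scaling and filters, a replicate block and leaving out each library.

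Members and lists were chosen with earlier results of these data known. Values per library were given for the member with the highest level per kb and the one with the smallest p in each complex, and for members with an unadjusted p under 0.05. The other members and list genes with values were picked after their values were seen, apart from up to 3 per list by smallest p.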

Additional observations from a re-analysis of the deposited data

How the results depend on the processing

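The count of called members was 0 in 12 of 13 alternatives and 1 with DESeq2 (eif3hb, fitted log2 fold change -8.86). With 0 counts of eif3hb in Geminin-positive libraries, its counts give only the bound of -6.41, and the fitted value is no measure of size. The median member stayed between 0.02 and 0.15 except with library size alone, where it was -0.36. The count of all genes called was 626 with DESeq2, 185 with library size alone, 557 without a filter and 144 with the stricter filter (at least 10 CPM in 3 libraries). It was 22 to 96 when 1 library was left out. With the replicate block it was 134, 47 higher and 87 lower, and still 0 members. The smallest adjusted p of a member was then 0.213 (eif5b, edgeR). Same-numbered libraries correlated by 0.18, 0.06 and 0.04 and different-numbered ones by -0.12 to 0.05. The main test did not take the numbers as pairs, but these values do not exclude a pairing. Of 17 members named by rule, 11 kept their direction in all alternatives. With library size alone, eif1axa (-0.0095), eif4a3 (-0.32) and eif5a (-0.080) changed sign. Leaving out 1 library turned eif3f (-0.271 to 0.034), eif4a3 (-0.067 to 0.382), eif4g2b (-0.218 to 0.069) and eif6 (-0.284 to 0.016), all near 0. The difference in the share of counts was -0.18 to -0.11 percentage points. At this depth and spread, 2-fold differences of single members were mostly not detectable.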
